A study of Homo sapiens with 24 samples.

Results

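Untreated AID-DIvA cells were compared with untreated U2OS cells, both as wild type (WT) and as ID3 knockout (ID3-KO). These libraries, chosen by their titles, are 12 of the 24 in the series: 6 AID-DIvA (3 WT, 3 ID3-KO) and 6 U2OS (3 WT, 3 ID3-KO), measured by RNA-seq of total RNA. U2OS is a human osteosarcoma cell line, and AID-DIvA is a U2OS derivative with an integrated vector that expresses the restriction enzyme AsiSI, which enters the nucleus and cuts DNA only after 4-hydroxytamoxifen is added. None of the 12 libraries came from cells described by their titles as given a compound. The remaining 12 libraries are from cells given the HDAC inhibitor mocetinostat, with a recovery named in the titles for AID-DIvA and none named for U2OS, and were used only where named.

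Several features of the design limit the comparison. Cell line, culture and set of libraries coincide, so they cannot be told apart. The medium is described for the U2OS cells and by reference for the AID-DIvA cells, and the number of ID3-KO clones is not given in the sources used here. In all 12 AID-DIvA libraries the title and the treatment entry name opposite treatments. Titles were followed, so the AID-DIvA libraries called untreated here carry a mocetinostat entry. The libraries titled U2OS also carry the DIvA name in their library names.

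As background, metallothioneins are small cysteine-rich proteins that bind zinc and copper, and their genes are switched on by the zinc sensor MTF1 together with the zinc exporter gene SLC30A1. Genes of the G2/M phase encode the spindle, kinetochore and cytokinesis machinery and are transcribed late in the cell cycle. CA9, a carbonic anhydrase, and several glycolytic enzymes are targets of the hypoxia-inducible factors, which are stable when oxygen is low. ID3, the gene removed here, encodes a repressor that binds basic helix-loop-helix factors and keeps them from DNA.

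The targeted gene was read first. ID3 lay at 47.9, 51.1 and 51.4 counts scaled to the TMM-adjusted library size (CPM) in the 3 AID-DIvA WT libraries and at 32.4, 31.2 and 38.5 CPM in the 3 AID-DIvA ID3-KO libraries. In U2OS it lay at 80.4, 52.8 and 50.9 CPM in WT and at 32, 29.8 and 28.9 CPM in ID3-KO cells. ID3 RNA was thus lower in every ID3-KO library than in every WT library of either line, without being lost, and its protein was not measured here. The study reports that the knockout was checked by Western blot of ID3. Between the lines the ID3 values overlapped (log2 difference AID-DIvA minus U2OS -0.06, SE 0.11, adjusted p = 0.678), and the sign turned to 0.07 without U2OS WT replicate 1.

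The libraries separated by genotype first and by line second. The first principal component of log2 CPM (39.3% of the variance) had all WT libraries on one side and all ID3-KO libraries on the other, and the second (23.3%) had the AID-DIvA libraries above the U2OS libraries of the same genotype. U2OS WT replicate 1 stood apart. It had the lowest score on the third component (12.5%) and held 7.17% ribosomal protein reads, against 5.17% to 5.44% in the other U2OS libraries. Its counts differed from the other U2OS WT libraries by a chi-square of 92.1 to 104.8 per gene, against 4.34 between those 2. Between the AID-DIvA ID3-KO libraries this chi-square was 11.91 to 27.45, so replicates of that group also varied. Results that rest on it are therefore given with and without it. Total counts were 50919711 to 76906266 in AID-DIvA and 51122228 to 70692114 in U2OS. The mitochondrial share of reads was 6.48% to 9.27% in AID-DIvA and 5.59% to 6.54% in U2OS.

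**Figure D1:**
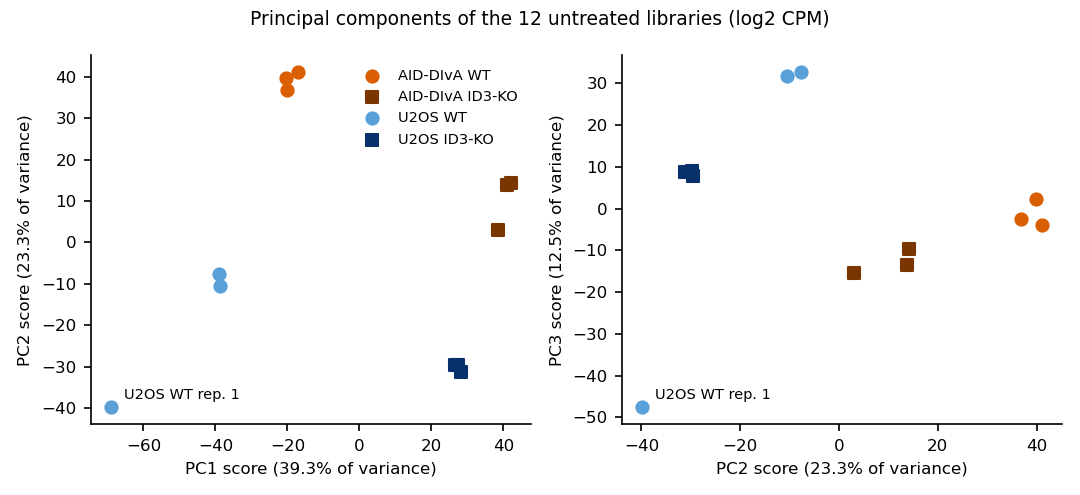
Principal component scores of the 12 untreated libraries from log2 CPM, each point being 1 library (orange and brown, AID-DIvA; blue, U2OS; circles, WT; squares, ID3-KO). The left panel shows genotype along PC1 (39.3% of the variance) and line along PC2 (23.3%), and the right panel shows U2OS WT replicate 1 alone at the lower end of PC3 (12.5%).

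Both lines were checked against markers of their labelled origin and of other tissues. Of 9 osteoblast lineage markers 6 reached a mean of 1 CPM in either line, and their summed level ranged from 2650 to 3250 CPM in AID-DIvA and from 3020 to 4120 CPM in U2OS. RUNX2, the master factor of bone formation, had a median of 24.7 CPM in AID-DIvA and 31.1 CPM in U2OS (log2 difference -0.43, SE 0.06, adjusted p = 4.4e-05), with overlapping libraries. Of 6 blood markers 0 reached 1 CPM in either line. Of 4 neural markers 2 did in each line, and of 6 epithelial markers 1 in AID-DIvA and 2 in U2OS. Of 4 endothelial markers listed 3 were present in the data, and 1 reached 1 CPM in each line. Endothelial markers summed to 2.21 to 3.6 CPM in AID-DIvA and 3.69 to 7.5 CPM in U2OS, mainly through VWF, the clotting factor carrier (log2 difference -1.05). Epithelial markers summed to 6.58 to 7.88 CPM in AID-DIvA and 6.21 to 9.93 CPM in U2OS, and neural markers to 9.81 to 15.6 and 9.95 to 16.7 CPM.

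No gene tested was on in one line and off in the other. Among the genes tested, 0 had at least 1 CPM in every library of one line and under 0.1 CPM in every library of the other. Among the 15219 genes with a mean of at least 1 CPM, 0 had a gap of over 4-fold between all libraries of the lines (after adding 0.1 CPM), whereas 8 lay higher in WT and 17 higher in ID3-KO by such a gap between the genotypes. ESR1, whose product binds tamoxifen derivatives and which was followed because such domains control enzymes of this type, did not separate the lines: it ranged from 0.564 to 0.805 CPM in AID-DIvA and from 0.0617 to 0.846 CPM in U2OS (log2 difference 0.19, SE 0.32, adjusted p = 0.672). The lowest of these values was U2OS WT replicate 1. Transcripts of the integrated vector were not analysed here.

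With genotype as a covariate, 159 genes were upregulated and 274 downregulated in AID-DIvA relative to U2OS, past an adjusted p of 0.05 and a log2 difference of 1 (edgeR quasi-likelihood test, Benjamini-Hochberg). These are 0.74% and 1.28% of the 21489 genes tested. Of them 131, 48 higher and 83 lower, had a mean of at least 1 CPM, and 92 of the 131 did not overlap between the 6 and 6 libraries, against 26% of all genes at that level. Over all 433 called genes 176 did not overlap (40.6%), against 19.4% of all genes tested. Small differences were far more common: without the fold threshold 4773 genes were higher (22.2%) and 4849 lower (22.6%), together 44.8% of the genes tested. The counts of gene lists below, taken at the adjusted p alone, are read against these shares. Without U2OS WT replicate 1 the counts beyond 2-fold were 196 and 315, and 343 genes were called in both fits.

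The broad difference moved with base composition. Over 14890 genes with at least 1 CPM, the line difference and the GC content of the transcript had a Spearman rho of -0.668, a description across genes that share all 12 libraries. Of 5 bins of 2978 genes, the bin with the lowest GC content (23.1% to 40.7%) had a median log2 difference of 0.32, with 88.2% of genes higher in AID-DIvA, and the bin with the highest (57.8% to 76.0%) had a median of -0.28, with 9.57% higher. The correlation was alike within WT (rho -0.613) and within ID3-KO (rho -0.673), and without U2OS WT replicate 1 (rho -0.64). It was weaker for the genotype difference in AID-DIvA (rho -0.07) and in U2OS (rho -0.146), and between the treated libraries of the lines (rho -0.1). Its source, and its part in the results below, were not tested. The main gene groups below are therefore given also from a fit with offsets for GC content and length, chosen after seeing the data, in which rho was -0.0062. That fit called 103 genes higher (0.495%) and 168 lower (0.807%) of 20818, and 208 of these were also called without the offsets. With the offsets and no fold threshold 19.4% of genes were higher and 17.7% lower, the shares against which the counts with offsets below are read.

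**Figure D2:**
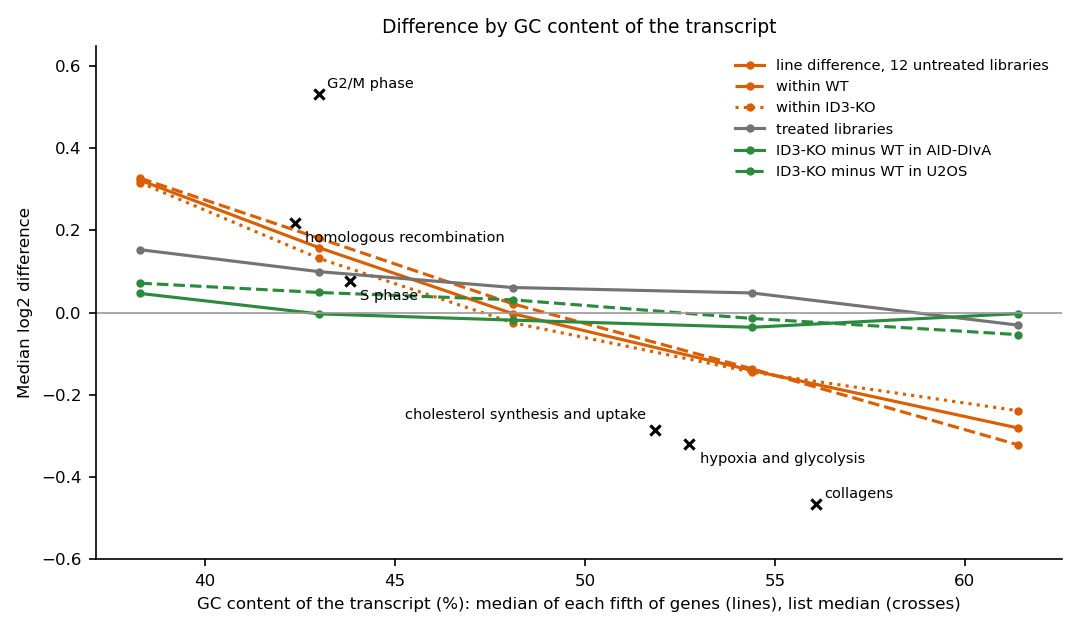
Median log2 difference (y axis) of genes with at least 1 CPM, in 5 bins of equal size by the GC content of the transcript (x axis, percent), where lines join the 5 medians of each comparison and crosses mark the medians of 6 gene lists. The line difference (orange) falls from 0.32 to -0.28 over the 12 libraries, from 0.33 to -0.32 within WT and from 0.32 to -0.24 within ID3-KO, the genotype difference (green) and the treated libraries (grey) are flatter, and the G2/M list lies above the orange line at its GC content while S phase lies near it.

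Zinc-handling genes were higher in AID-DIvA. All 4 members tested of a list of 11 metallothioneins and SLC30A1 were upregulated in AID-DIvA beyond 2-fold, with a median log2 difference of 1.47, against -0.03 over all genes tested. The other members of the list did not pass the filter on low counts, and near-identical metallothionein copies may exchange reads. MT2A, the most abundant, ranged from 359 to 453 CPM in AID-DIvA (median 407) and from 114 to 173 CPM in U2OS (median 123). Its log2 difference was 1.65 (SE 0.09, adjusted p = 1.78e-08), or 3.14-fold, and the highest U2OS value, from U2OS WT replicate 1, was still below the lowest AID-DIvA value. MT1E rose by 2.71-fold (122 to 162 against 36.5 to 67.3 CPM) and MT1X by 2.82-fold (9.05 to 13 against 2.94 to 5.99 CPM). SLC30A1 lay at 46.5, 47.2 and 52.1 CPM in AID-DIvA WT and at 64.2, 59.5 and 60.8 CPM in AID-DIvA ID3-KO, against 18.9, 18.8 and 19.1 CPM and 26.2, 24.5 and 24 CPM in the same genotypes of U2OS. The 2.52-fold difference in this exporter (log2 1.33, SE 0.05, adjusted p = 5.02e-10) was nearly equal within WT (1.36) and within ID3-KO (1.30). With the GC and length offsets the median of the list was 1.64, and without U2OS WT replicate 1 it was 1.62.

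The promoters of these genes are shown because the members moved together. The 250 bases before the RefSeq start (build GRCh38.p14, 5′ to 3′) are given in lower case, with capitals for the core of the metal response element, TGCACNC or TGCGCNC, on either strand. MT2A lies at chr16:56608334-56608583 on the plus strand, MT1X at chr16:56682220-56682469 on the plus strand and SLC30A1 at chr1:211579162-211579411 on the minus strand.
MT2A: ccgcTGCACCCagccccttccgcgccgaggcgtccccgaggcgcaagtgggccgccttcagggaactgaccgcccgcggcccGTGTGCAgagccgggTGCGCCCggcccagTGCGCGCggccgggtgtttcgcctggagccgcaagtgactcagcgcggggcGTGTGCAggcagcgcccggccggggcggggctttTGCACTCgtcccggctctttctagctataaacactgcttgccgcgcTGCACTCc
MT1X: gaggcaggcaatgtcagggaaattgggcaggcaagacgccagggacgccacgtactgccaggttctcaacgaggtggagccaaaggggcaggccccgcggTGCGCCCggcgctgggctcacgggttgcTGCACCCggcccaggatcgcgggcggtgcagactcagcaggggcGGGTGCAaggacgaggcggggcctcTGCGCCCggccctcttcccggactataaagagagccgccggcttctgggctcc
SLC30A1: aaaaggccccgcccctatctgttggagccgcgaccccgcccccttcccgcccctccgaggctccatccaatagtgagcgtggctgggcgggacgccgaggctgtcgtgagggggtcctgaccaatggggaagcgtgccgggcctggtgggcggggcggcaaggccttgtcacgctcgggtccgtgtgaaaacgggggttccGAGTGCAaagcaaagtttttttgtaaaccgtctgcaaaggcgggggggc
MT2A held 7 matches, MT1X 4 and SLC30A1 1. All 6 promoters of the list found in the RefSeq table had at least 1 match and 5 had at least 3, against 24.7% and 1.56% of all 27305 promoters of that length. Only 4 members of the list were tested, so the 6 include genes that did not pass the filter on low counts. A match is a description of the letters and says nothing of binding in these cells.

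**Figure D3:**
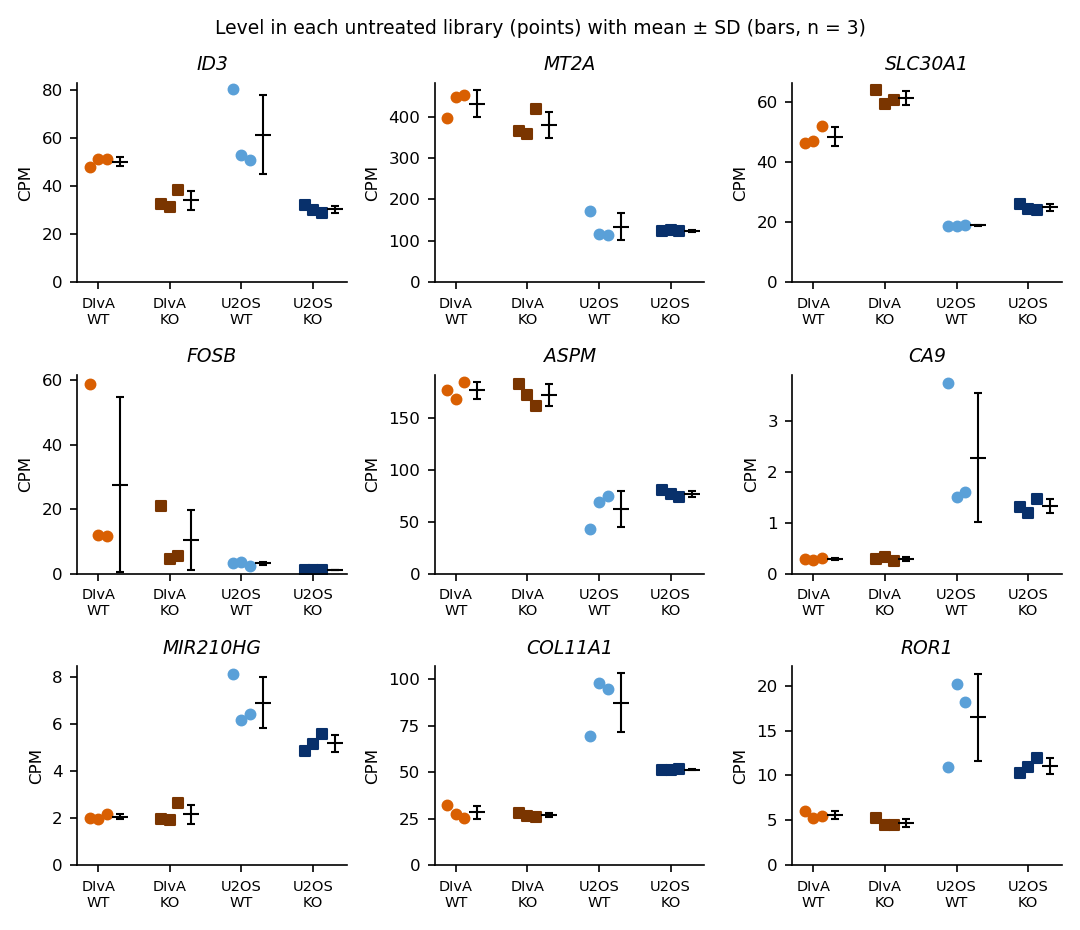
CPM of 9 genes in each untreated library (points, left to right replicates 1 to 3) with the mean and SD of each group (n = 3); the y axes start at 0 and differ between panels. MT2A, SLC30A1, FOSB and ASPM lie higher in all 6 AID-DIvA libraries, CA9, MIR210HG, COL11A1 and ROR1 lower, and ID3 overlaps between the lines.

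Genes of the G2/M phase were higher in AID-DIvA. Of 54 listed genes, all tested, 47 were upregulated past the adjusted p threshold and 0 downregulated, against 22.2% of all genes upregulated. Of these 7 were beyond 2-fold, and the median log2 difference was 0.53. TTK, the spindle checkpoint kinase, ranged from 71.4 to 85.9 CPM in AID-DIvA and from 33.9 to 42 CPM in U2OS (log2 difference 1.12, SE 0.06, adjusted p = 1.74e-08). CENPE, the kinetochore motor, had medians of 178 and 80.5 CPM, a 2.19-fold difference. ECT2, which starts cytokinesis, and HMMR, a spindle protein, were 2.01-fold and 2.02-fold higher. CKAP2, KIF11, DLGAP5 and NUF2, all spindle or kinetochore proteins, rose by 1.94-fold, 1.77-fold, 1.78-fold and 1.77-fold, with no overlap between the lines. Mitotic genes outside the list were among the abundant genes with the largest differences: ASPM, a spindle pole protein, had medians of 174 and 74.5 CPM (2.52-fold), SGOL2, the protector of centromeric cohesion, 104 and 39.3 CPM (2.63-fold), KIF14 121 and 63.8 CPM (2.07-fold) and DEPDC1 106 and 47.9 CPM (2.23-fold). With the AID-DIvA libraries chosen by the treatment entry in place of the title, ASPM, KIF14, DEPDC1, CKAP2, DLGAP5 and NUF2 turned to values between -0.05 and -0.31, whereas TTK was at 0.20 and HMMR at 0.33.

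The list had a median GC content of 43%, and the part of base composition in its difference was not tested. Other genes within the interquartile range of the list's GC content (39% to 50.3%, 6503 genes) had a median log2 difference of 0.11. With the GC and length offsets 52 of 54 members were upregulated and 0 downregulated, with a median of 0.46 against 0 over all genes, and none was beyond 2-fold. TTK then differed by 0.88 (adjusted p = 8.66e-09), CENPE by 0.72 and ASPM by 0.99. The same direction appeared within WT (45 of 54, median 0.60) and within ID3-KO (43 of 54, median 0.44), where 19.3% and 14.5% of all genes were higher.

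S phase genes were divided. Of 43 genes 17 were upregulated and 10 downregulated, with a median of 0.08. Their GC content had a median of 43.8%, and its part in these differences was not tested. With the offsets the counts were 9 and 11 of 42, near the shares over all genes, and the median was -0.02. USP1, the deubiquitinase of the Fanconi pathway, rose by 0.71 on the log2 scale, whereas GINS2 and MCM5, subunits of the replicative helicase complex, fell by 0.43 and 0.27. For MCM5 the difference did not pass with the offsets (-0.11, adjusted p = 0.0559). Replication-dependent histone genes gave 2 upregulated and 3 downregulated of 31 tested, and with the offsets 2 and 2 of 18.

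The promoters of 3 G2/M genes named above are shown because they held TTTGAA, given in capitals on either strand. These are the letters of the cell cycle homology region at which late cell cycle genes are repressed. KIF11 lies at chr10:92592880-92593129 on the plus strand, DLGAP5 at chr14:55191586-55191835 on the minus strand and HMMR at chr5:163460382-163460631 on the plus strand, each as the 250 bases before the RefSeq start in GRCh38.p14.
KIF11: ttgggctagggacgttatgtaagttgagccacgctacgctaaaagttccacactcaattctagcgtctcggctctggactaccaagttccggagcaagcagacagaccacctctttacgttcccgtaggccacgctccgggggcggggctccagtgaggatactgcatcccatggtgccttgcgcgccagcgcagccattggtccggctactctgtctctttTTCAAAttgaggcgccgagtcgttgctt
DLGAP5: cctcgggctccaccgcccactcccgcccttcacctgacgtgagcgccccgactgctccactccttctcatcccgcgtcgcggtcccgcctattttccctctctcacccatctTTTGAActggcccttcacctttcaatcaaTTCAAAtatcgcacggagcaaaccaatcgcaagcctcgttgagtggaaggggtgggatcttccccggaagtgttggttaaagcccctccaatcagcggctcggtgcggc
HMMR: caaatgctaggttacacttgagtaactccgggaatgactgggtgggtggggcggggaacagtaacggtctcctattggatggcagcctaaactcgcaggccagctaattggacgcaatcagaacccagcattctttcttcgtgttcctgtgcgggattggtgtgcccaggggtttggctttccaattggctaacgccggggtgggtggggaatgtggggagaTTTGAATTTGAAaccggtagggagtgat
CKAP2 and NUF2 had no such letters in their windows. Of 44 G2/M promoters found in RefSeq, 23 held at least 1 match (52.3%), against 2 of 31 S phase promoters (6.45%) and 13.6% of all promoters.

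FOSB and FOS, immediate early subunits of the AP-1 factor, were higher in AID-DIvA with a wide spread. FOSB lay at 58.9, 11.9 and 11.8 CPM in AID-DIvA WT and at 21, 4.47 and 5.51 CPM in AID-DIvA ID3-KO, against 3.38, 3.53 and 2.44 CPM in U2OS WT and 1.23, 1.08 and 1.02 CPM in U2OS ID3-KO. Replicate 1 was the highest in both AID-DIvA groups, and the lines still did not overlap (log2 difference 3.16, SE 0.48, adjusted p = 0.000107, 8.94-fold). FOS showed the same high replicate 1 in AID-DIvA (170 CPM in WT and 87.1 CPM in ID3-KO) and overlapped between the lines (log2 difference 1.30, SE 0.26, adjusted p = 0.000917). The list as a whole was divided: of 28 immediate early and AP-1 genes 5 were upregulated and 8 downregulated, and with the offsets 9 and 1.

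RN7SL2, the RNA of the signal recognition particle, ranged from 18 to 31.6 CPM in AID-DIvA and from 3.98 to 10 CPM in U2OS (3.79-fold, adjusted p = 5.53e-06), and its near-identical copies make the value uncertain. The small nucleolar RNA SNORD12B rose by 2.72-fold and the long noncoding RNAs AC069282.6 and LL22NC03-2H8.5 by 2.95-fold and 2.93-fold, all at medians of 1.48 to 2.11 CPM in AID-DIvA. ABCC9, the regulatory subunit of a potassium channel, ranged from 2.83 to 5.96 CPM in AID-DIvA and from 0.509 to 2.7 CPM in U2OS (2.85-fold). ARL6IP1, a shaper of the endoplasmic reticulum, had medians of 170 and 80.7 CPM (2.32-fold), and NR1D2, a repressor of the circadian clock, 132 and 62.7 CPM (2.22-fold).

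Protein-coding and ribosomal RNA genes of the mitochondrial genome were higher in AID-DIvA as well. Of 15 tested, 11 were upregulated and 0 downregulated (median log2 difference 0.42), and with the offsets 10 and 0 (median 0.37). MT-CO1, a subunit of cytochrome c oxidase, ranged from 13120 to 18420 CPM in AID-DIvA and from 9360 to 11210 CPM in U2OS (log2 difference 0.59, SE 0.06, adjusted p = 4.36e-06). MT-ND2 and MT-ND4L, subunits of complex I, were 1.56-fold and 1.64-fold higher. Over all 37 genes of the mitochondrial chromosome that were tested, transfer RNA genes included, 20 were upregulated and 3 downregulated. One of the latter, the transfer RNA gene MT-TK, named after its values were seen, was beyond 2-fold (log2 difference -1.21, adjusted p = 0.00534), with overlapping libraries.

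Cytosolic ribosomal protein genes gave 0 upregulated and 30 downregulated of 74, with a median of -0.18. Without U2OS WT replicate 1, the library with the highest share of such reads, 4 were upregulated and 38 downregulated and the median was -0.10, and with the offsets the counts were 2 and 26 and the median -0.13.

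Hypoxia and glycolysis genes were lower in AID-DIvA. Of 31 genes, all tested, 21 were downregulated and 0 upregulated past the adjusted p threshold, against 22.6% of all genes downregulated, with a median log2 difference of -0.32. CA9 ranged from 0.243 to 0.319 CPM in AID-DIvA and from 1.2 to 3.75 CPM in U2OS, with the highest value in U2OS WT replicate 1. Its log2 difference was -2.61 (SE 0.26, adjusted p = 2.07e-06), or 6.09-fold lower, and it was -2.30 without that library. PFKFB4, a regulator of glycolytic flux, had medians of 19 and 37.1 CPM (2.01-fold lower), and ALDOC, an aldolase, 16.2 and 35.1 CPM (2.26-fold lower). ENO2, an enolase, HK2, the hexokinase, and SLC2A1, the glucose carrier, were 1.76-fold, 1.72-fold and 1.48-fold lower. MIR210HG, the host gene of a hypoxia-induced microRNA that was not on the list, had medians of 1.99 and 5.86 CPM (2.85-fold lower, adjusted p = 2.35e-07). With the offsets 18 members were downregulated and 2 upregulated (median -0.23), and CA9 and ALDOC differed by -2.28 and -0.99.

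The promoter of CA9, which led this group, is shown as the 250 bases before the RefSeq start at chr9:35673678-35673927 on the plus strand (GRCh38.p14), with capitals for the core of the hypoxia response element, ACGTG or GCGTG, on either strand.
CA9: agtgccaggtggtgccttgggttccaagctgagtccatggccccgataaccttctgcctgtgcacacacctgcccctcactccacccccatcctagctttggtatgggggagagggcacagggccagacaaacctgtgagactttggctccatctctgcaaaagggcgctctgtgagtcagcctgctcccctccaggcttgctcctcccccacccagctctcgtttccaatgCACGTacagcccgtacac
CA9 held 1 match, 18 bases before the start. Of 27 promoters of the list found in RefSeq, 18 held at least 1 match (66.7%), against 43.1% of all promoters, and these short letters are thus common in windows of this length.

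Genes of sterol synthesis were mostly lower. Of 24 genes of cholesterol synthesis and uptake 17 were downregulated and 4 upregulated (median -0.29), and 15 and 1 with the offsets (median -0.22). MVD and LSS, enzymes of the mevalonate and lanosterol steps, fell by 0.83 and 0.75 on the log2 scale, DHCR7, the last reductase, by 0.67, and SREBF1, the sterol-responsive factor, by 0.74. LSS overlapped between the lines because it was lower in ID3-KO cells of both (182 to 207 against 284 to 303 CPM in AID-DIvA). SC5D, a desaturase of the late pathway, went the other way (0.58).

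Collagens were mostly lower in AID-DIvA. Of 33 collagen genes tested 23 were downregulated and 2 upregulated (median -0.47). Other genes within the interquartile range of their GC content had a median of -0.18. With the offsets 20 were downregulated and 2 upregulated, with a median of -0.24. COL11A1, a chain of cartilage fibrils, ranged from 25.3 to 32.3 CPM in AID-DIvA and from 51.1 to 98 CPM in U2OS (log2 difference -1.28, SE 0.12, adjusted p = 1.33e-06). COL7A1, the anchoring fibril, had medians of 28.6 and 57.2 CPM, COL11A2 was 1.94-fold lower, and COL2A1, the main cartilage collagen, was 2.28-fold lower with overlapping libraries. COL3A1 and COL8A1 were the exceptions, higher in AID-DIvA by 0.39 and 0.41 on the log2 scale. COL1A1, the main bone collagen, differed by -0.45 (adjusted p = 0.00171) and by -0.20 with the offsets (adjusted p = 0.0872).

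COL3A1 also shows how much larger the genotype difference can be. It lay at 42.1, 40.8 and 39.2 CPM in AID-DIvA WT and at 515, 503 and 563 CPM in AID-DIvA ID3-KO, against 33.7, 37.2 and 36.9 CPM and 357, 348 and 344 CPM in U2OS. The ID3-KO level was thus far above the WT level in both lines, and the line difference was small beside it.

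Among matrix receptors and basement membrane chains, 16 of 30 integrin and laminin genes were downregulated and 5 upregulated (median -0.30), and 12 and 3 with the offsets (median -0.21). LAMA4, a laminin chain, fell 2.04-fold and ITGA10, a collagen receptor, 1.76-fold, while ITGA6, a laminin receptor, rose 1.55-fold. MMP3 (2.99-fold) and MMP9 (2.64-fold), secreted proteases that cut matrix proteins, were higher in AID-DIvA in both genotypes, although their ranges over the 6 libraries of each line overlapped because MMP9 was lower and MMP3 higher in ID3-KO cells. The 32 matrix proteases and inhibitors tested spread to both sides, from -1.28 to 1.58 on the log2 scale. ADAMTS14 was at the low end (log2 difference -1.28, adjusted p = 4.27e-05), with overlapping libraries. PLAT, the tissue plasminogen activator, was lower (46.8 to 69.1 against 99.9 to 106 CPM, 1.82-fold).

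Beyond these lists, the most downregulated genes with at least 1 CPM and no overlap between the lines had varied functions. PLA2G3, a secreted phospholipase, ranged from 0.222 to 0.705 CPM in AID-DIvA and from 0.939 to 2.22 CPM in U2OS (3.68-fold lower, adjusted p = 6.02e-08). ABCG1, a sterol exporter, had medians of 4.87 and 13.9 CPM (2.79-fold), ROR1, a receptor of WNT ligands, 5.23 and 11.4 CPM (2.63-fold), and CSGALNACT1, an enzyme of chondroitin sulfate synthesis, 2.16 and 6.59 CPM (2.90-fold). The noncoding RNA CTC-459F4.1 ranged from 11.6 to 17.8 CPM in AID-DIvA and from 33.4 to 51 CPM in U2OS (3.09-fold, adjusted p = 6.28e-09). VWA5B2, C5orf46 and AC074289.1 were 3.20-fold, 3.19-fold and 2.73-fold lower. At higher levels, UNC13A, a priming factor of vesicle release, PCSK1N, an inhibitor of prohormone convertases, MYO15B, and NPAS2, a circadian clock factor, were 2.29-fold, 2.25-fold, 2.42-fold and 2.03-fold lower.

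CDKN1A, MDM2 and CCNG1 were read as single genes. CDKN1A, an inhibitor of cyclin-dependent kinases, ranged from 153 to 184 CPM in AID-DIvA and from 242 to 307 CPM in U2OS (log2 difference -0.64, SE 0.07, adjusted p = 2.97e-06), so the lines did not overlap. MDM2, a ubiquitin ligase, and CCNG1, a cyclin, rose by 0.42 and 0.68 on the log2 scale.

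Genes of break repair, which the AsiSI system was built to study, were read next. Of all genes tested 22.2% were higher and 22.6% lower at the same threshold, and 19.4% and 17.7% with the offsets. Of 25 homologous recombination genes 16 were upregulated and 3 downregulated (median 0.22), but other genes within the interquartile range of their GC content had a median of 0.18, and with the offsets the counts were 8 and 4 (median 0.08). BRCA2 and NBN differed by 0.65 and 0.62, and by 0.28 and 0.21 with the offsets. Of 24 end joining and break signalling genes 9 were upregulated and 2 downregulated (median 0.09), and LIG4, the end joining ligase, differed by 0.58, or 0.31 with the offsets. With the offsets that list gave 7 upregulated and 1 downregulated (median 0.06). Of 7 ID and E protein genes 4 were upregulated and 0 downregulated, among them ID4 (0.76) and ID2 (0.44), the paralogs of ID3, and with the offsets the counts were again 4 and 0. Of 24 NF-kappaB targets and cytokines 11 were downregulated and 1 upregulated (median -0.34), with CSF2, a myeloid growth factor, at 0.0375 to 0.251 CPM in AID-DIvA and 0.15 to 1.17 CPM in U2OS, and CCL20, a chemokine, 2.13-fold lower. With the offsets 10 of 22 were downregulated and 2 upregulated (median -0.34).

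**Figure D4:**
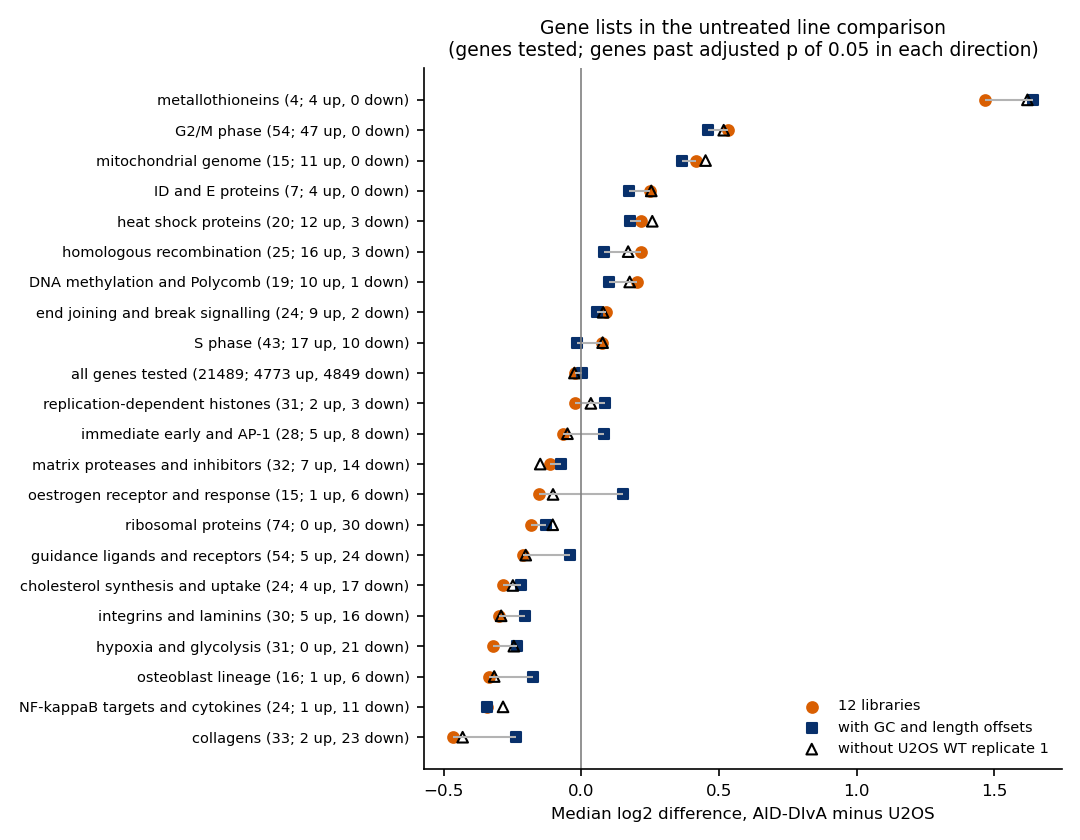
Median log2 difference (AID-DIvA minus U2OS, x axis) of gene lists and of all genes tested, from the 12 libraries (orange circles), with GC and length offsets (blue squares) and without U2OS WT replicate 1 (open triangles); the labels give genes tested and genes past an adjusted p of 0.05. Metallothioneins (1.47) and G2/M genes (0.53) are high in all 3 fits, collagens (-0.47) and hypoxia genes (-0.32) are low, and guidance and homologous recombination genes move towards 0 with the offsets.

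The line difference was also read within each genotype, from 1 fit that shares its scaling and estimate of spread over the 12 libraries. Within WT 245 genes were upregulated (1.14% of genes tested) and 612 downregulated (2.85%) in AID-DIvA, together 3.99%. Within ID3-KO these were 117 (0.544%) and 131 (0.61%), together 1.15%. Without U2OS WT replicate 1 the counts were 256 and 684 within WT and 222 and 203 within ID3-KO, so the calls within ID3-KO also depend on that WT library. Of the 857 WT calls 767 had the same sign within ID3-KO (89.5%, against 77.3% of all genes tested), and 311 of them passed the adjusted p threshold there, which 25.4% of all genes did in either direction, against 38% within WT. Their median log2 difference, signed by the WT direction, was 1.26 within WT, where they were chosen, and 0.58 within ID3-KO. In the other direction 223 of 248 ID3-KO calls had the same sign within WT, and the 108 genes called in both are 12.6% of the WT calls and 43.5% of the ID3-KO calls. With the GC and length offsets 85.5% of the WT calls had the same sign within ID3-KO, against 72.9% of all genes. Without U2OS WT replicate 1 the same held for 802 of 940 WT calls (85.3%), against 76.2% of all genes.

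**Figure D5:**
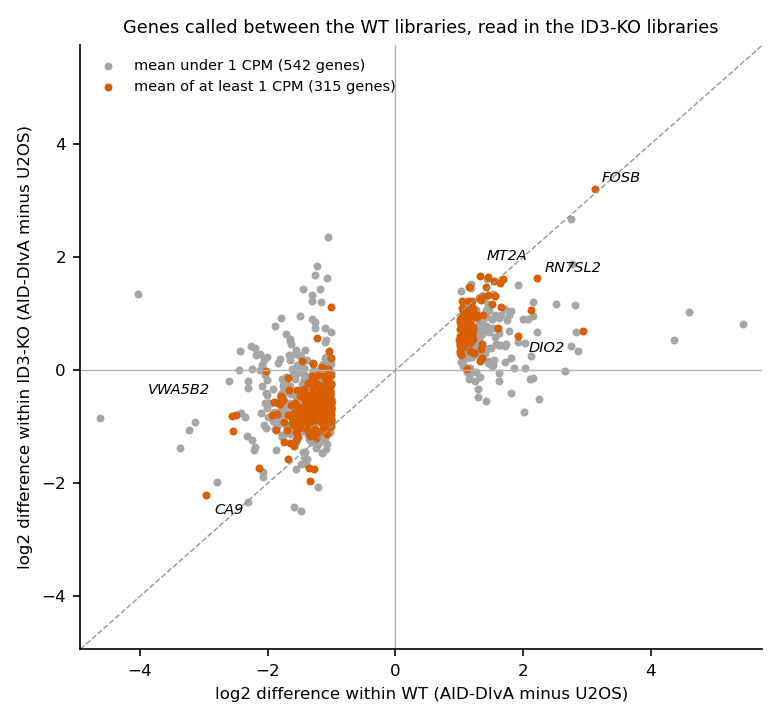
Log2 line difference within ID3-KO (y axis) of the 857 genes called within WT (x axis), each point being 1 gene (orange, mean of at least 1 CPM; grey, below), with the line of equality dashed. Of these 767 have the same sign in both, and the cloud lies nearer to 0 within ID3-KO, where the median in the WT direction is 0.58 against 1.26 within WT, the values that chose the genes.

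The line difference depended on genotype for 215 genes (interaction, adjusted p below 0.05, 1% of genes tested), 150 with a higher (0.698%) and 65 with a lower value (0.302%) in ID3-KO. Without U2OS WT replicate 1 the counts were far higher, as 1099 and 564 genes passed. The genes named next come from the fit of all 12 libraries. VWA5B2 had the smallest adjusted p among the former: it lay at 7.01, 7.25 and 6.4 CPM in AID-DIvA WT and 35.9, 41.8 and 39.4 CPM in U2OS WT, but at 5.42, 5.36 and 6.76 CPM and 9.7, 10.2 and 10.3 CPM in the ID3-KO cells. LMCD1, a transcriptional cofactor, had the same pattern (22.8 to 25.6 against 83.3 to 89.3 CPM in WT, and 9.58 to 11.4 against 14.7 to 16.4 CPM in ID3-KO). In the opposite direction CAV1, the coat protein of caveolae, lay at 672, 683 and 732 CPM in AID-DIvA WT and 292, 263 and 265 CPM in U2OS WT, and at 298 to 329 and 232 to 249 CPM in ID3-KO. DIO2, which activates thyroid hormone, followed the same course, with a line difference of 1.92 within WT and 0.61 within ID3-KO.

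The genotype difference itself was shared by the lines. Over 15219 genes with at least 1 CPM, ID3-KO minus WT had a Pearson r of 0.836 (Spearman 0.711) between AID-DIvA and U2OS, which share no libraries, and 0.847 without U2OS WT replicate 1. This is a description across genes, which are not independent. The line difference within WT and within ID3-KO had an r of 0.803 (Spearman 0.81). The SD over genes was 0.348 for the line difference, 0.399 for ID3-KO minus WT in AID-DIvA and 0.432 in U2OS.

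The treated libraries share none with the untreated ones, but there the line coincides with the stage of collection. Of the 433 genes called between the untreated lines 377 were tested in the treated libraries, and 297 had the same sign (78.8%, against 59.1% of all genes tested in both). The background was high, with 4566 of 22312 genes called between the treated libraries (20.5%), 5.32% higher and 15.1% lower in AID-DIvA. MT2A (log2 difference 1.03), MT1E (1.03), SLC30A1 (0.76), FOSB (2.20), RN7SL2 (1.97), CA9 (-2.13), MIR210HG (-1.60) and ROR1 (-2.34) kept their sign there. MT1X did not (-0.28), nor did the mitotic genes CENPE (-0.30), SGOL2 (-0.01) and DLGAP5 (-0.21), while TTK was at 0.39.

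The line difference was also read along the chromosomes. Over 297 windows of 10 Mb with at least 15 tested genes, the median log2 difference lay between -0.55 and 0.42, and with the offsets between -0.37 and 0.17. By chromosome it lay between -0.17 on chromosomes 19 and 22 and 0.14 on chromosome 18, and with the offsets these 3 were at 0.00, -0.01 and 0.02. The most downregulated calls in 1 window were 13 of 169 genes tested, at the start of chromosome 11, against 1.28% of all genes tested. That window held 0 upregulated calls. The most upregulated calls were 4, in each of 3 other windows, against 0.74% of all genes tested. These windows, on chromosomes 14, 15 and 16, held 109, 72 and 77 tested genes. All these windows were picked for their counts. MT2A, MT1E and MT1X also lie on chromosome 16.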

How the data were processed

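RNA-seq of total RNA (stranded paired-end libraries) was aligned by the authors with STAR to GRCh37 (hg19) and counted per gene with featureCounts. The values used are the deposited raw counts of reads on either strand for 57820 genes in each of 24 libraries, and CPM were computed from them. No columns of other samples were present (0). Groups followed the titles. The study's methods describe the replicates as biological. Counts were fitted with edgeR 4.0.16 (R 4.3.3): TMM scaling, removal of low genes by filterByExpr, a robust quasi-likelihood fit on the 12 untreated libraries with genotype as covariate, or 1 mean per group for the differences within genotypes and the interaction. The study itself used DESeq2, here (1.42.0) an alternative. Genes were called at a Benjamini-Hochberg adjusted p below 0.05 and a log2 difference beyond 1, or at the adjusted p alone for the interaction and the gene lists. The scripts were tested on simulated counts.

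The genes named were ID3, ESR1, CDKN1A and MDM2 (some genes that the rule names are not reported here), the 10 most changed and 10 most abundant called genes in each direction without overlap between lines, up to 6 members of each list with the smallest adjusted p, and the 5 leading interaction genes in each direction. VWF, a marker, and the list members chosen for promoters come from the same lists. Members, lists and tests were chosen with earlier results of these data known. Alternatives were other filters, scaling, tests, thresholds and strand, a replicate block, all 24 libraries, the treatment field, leaving out each library and, chosen after seeing the data, GC and length offsets (a loess per library). Promoters came from RefSeq (GRCh38.p14), matched by symbol, and no coordinates were converted between builds.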

Additional observations from a re-analysis of the deposited data

Results flagged for a closer look

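The line difference depended on genotype, by an interaction test, in 215 genes. Among genes with at least 1 CPM, those with the smallest adjusted p and a higher line difference (AID-DIvA minus U2OS) in ID3-KO than in WT were VWA5B2 (log2 interaction 1.715), LMCD1 (1.253), CCL2 (1.62), PMEPA1 (0.7928) and CRYGS (2.007). Those with a lower line difference in ID3-KO were MARCH4 (-1.162), CAV1 (-0.9712), DIO2 (-1.303), CCBE1 (-0.853) and CPA4 (-0.7771).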

How the results depend on the processing

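Of 91 genes given by name 88 passed the adjusted p threshold in the line difference. All 88 kept their direction under every alternative but the treatment field, where they were tested. Of the 88, 53 kept passing under every one of those that tested them. Some alternatives did not test every gene. Most of these genes were picked for their differences in the same libraries, so kept directions are no independent support. In the test against a fold of 1.5, a stricter test, 35 no longer passed, against at most 2 under any other of those alternatives. The cause of the changes below was not tested. For the line difference (159 higher, 274 lower), 308 genes were higher with no filter, 61 higher and 120 lower with at least 10 counts in every library, 125 lower in the test against a fold of 1.5, 103 higher and 168 lower with GC and length offsets, and 4773 and 4849 with no fold threshold. Taking the treatment field in place of the titles gave 1039 and 861. Within WT, 114 were higher and 370 lower with at least 10 counts, and 384 lower with the offsets. Within ID3-KO, 75 were higher and 61 lower with at least 10 counts, 66 and 77 with the offsets, and 194 higher with all 24 libraries. For the interaction, 331 were higher and 161 lower by DESeq2, 234 higher with no filter, 328 higher with all 24 libraries, 404 and 323 with the offsets, and 1358 and 2245 with the offsets and without U2OS WT replicate 1. Leaving out 1 library at a time gave 153 to 207 higher and 238 to 353 lower for the line difference, 196 to 368 and 521 to 731 within WT, 86 to 222 and 103 to 203 within ID3-KO, and 67 to 1099 and 20 to 564 for the interaction, highest without U2OS WT replicate 1.

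Same-numbered libraries of different groups had correlations of their deviations from -0.36 to 0.226, not over 0.1 in every pair, so they were not treated as pairs, although replicate 1 of AID-DIvA WT and ID3-KO had 0.13 and shared high FOSB and FOS. With the replicate number as a block the line difference gave 163 higher and 267 lower genes, and the interaction 104 and 34.

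Under the treatment field these line differences (log2) turned: ID3 0.9994, CDKN1A 0.4219, ARL6IP1 -0.1264, ASPM -0.08761, KIF14 -0.09963, DEPDC1 -0.1251, CKAP2 -0.05111, DLGAP5 -0.3065, NUF2 -0.2175, HK2 0.3738, COL3A1 -0.9944, CSF2 1.859, CCL20 2.655, CCL2 0.6499, CAV1 -0.7196 and CPA4 -0.2042. By the same edgeR test, ID3 was 0.1713 with the offsets (adjusted p = 0.0925). When U2OS WT replicate 1 was also left out, ID3 was 0.2458 and passed (adjusted p = 0.00023), and ESR1 was -0.04648 (adjusted p = 0.845). With 1 library left out at a time, ID3 ranged from -0.1314 to 0.06988 (highest without U2OS WT replicate 1), ESR1 from -0.05152 (without U2OS WT replicate 1) to 0.4646, and CCBE1 from -0.1101 to 0.02926 (0.005012, 0.02926 and 0.00788 without AID-DIvA ID3-KO replicates 2 and 3 and U2OS ID3-KO replicate 3).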
